A study of Canis lupus familiaris with 28 samples.

Results

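Histiocytic sarcoma (HS) of Bernese Mountain Dogs (BMDs) was set against normal spleen and lung at the level of RNA, using 17 of the 28 samples of the series. The samples were chosen by their labels. The tumors were the 15 with the disease state histiocytic sarcoma, without those labelled hemophagocytic, and the controls were the 2 unaffected samples taken from spleen or lung. Each tumor came from a different BMD, and 5 were from lung, 2 from spleen, 3 from liver, 3 from the thorax or a thoracic mass, 1 from a leg mass and 1 from the shoulder. The controls were 1 spleen and 1 lung of German Shepherd Dogs (GSDs), and no treatment or age is given for any group. All 17 libraries carried the code of 1 flow cell in their names, so the flow cell did not differ between the groups. Breed and disease cannot be told apart here, because every tumor was from a BMD and both controls were from GSDs. Each organ had a single control library, so differences between dogs and between normal organs cannot be told apart either. Whether both controls came from the same GSD is not given in the sources used here, so they may not be independent dogs.

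Histiocytes are the macrophages and dendritic cells of the tissues. Macrophages take up and digest cells and debris in their lysosomes, and dendritic cells present antigens to T cells on MHC molecules. HS is a malignant tumor of these cells that is frequent in BMDs and often arises in the spleen, lung or liver. Normal spleen holds many lymphocytes, blood cells and macrophages on a scaffold of vessels and stroma, while normal lung is made up largely of epithelium and capillary endothelium. A comparison of tumor with whole organ therefore sets a mass of mostly malignant histiocytes, as judged by histopathology in the study, against a mixture of normal cell types.

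The values were reads counted on each of 32704 Ensembl gene identifiers. Between 99701394 and 171815073 reads were counted per tumor, with 171816341 in the spleen control and 153814215 in the lung control. Levels are given in log2 CPM (CPM are counts scaled to library size, here on the log2 scale, with TMM factors and a prior count of 2), on which a gene without a read lies at -6.19. Names were at hand for 1126 identifiers, of which 1036 were tested, so most genes of every pathway are not described. Over the 500 most variable genes, the distance between 2 tumors was 77.1 to 151.6 (median 101.8) and that between the controls 117.9. Another tumor was the closest library to 14 of the 15 tumors. The exception was HS51, a spleen tumor, which lay 78.6 from the spleen control and 133.5 from the lung control, so the results below are also given without it.

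The label of the tumors was checked against 12 markers of macrophages and dendritic cells, among them *CSF2RB*, a chain of the GM-CSF receptor, *NCF4*, a subunit of the phagocyte oxidase, and *LYZ*, which encodes lysozyme. Their summed level was 1049 CPM in the lowest tumor (HS35), 1838 CPM in the median tumor and 9882 CPM in the highest (HS14), against 1445 CPM in the spleen control and 444 CPM in the lung control. The sum was above both controls in 12 of the 15 tumors, and every tumor was above the lung control. Most of the sum in both controls was *LYZ* alone, at 9.89 log2 CPM in spleen and 8.40 in lung. In tumors *LYZ* was at 7.97 to 13.21 with a median of 10.23, and it was not called (log2FC 1.53, adjusted p = 0.398). The sum therefore largely reflects 1 gene and not 12 markers moving together. The median log2FC of the 12 markers was 1.51, with 10 positive and 2 negative values, from -0.95 to 3.55. At the cutoffs given next 0 of the 12 were called. An unadjusted p under 0.05 was found for 3, beside 4930 of the 21199 genes tested, which is a similar share. The median was 2.73 without the spleen control and 0.83 without the lung control, and that of all genes 0.19 and 0.38, so its size depended on the control. In the tumors the level of *NCF4* ran from 5.22 over a median of 6.24 to 7.74 log2 CPM, beside 5.57 in the spleen and 3.93 in the lung control (log2FC 1.74 ± 0.78 SE, adjusted p = 0.186). *MMP19*, a matrix metalloproteinase of macrophages and other cells, was at 1.04 to 6.23 with a median of 4.24 in tumors, and at 1.56 and 2.24 in the spleen and lung controls (log2FC 2.98 ± 1.15, adjusted p = 0.122). Tumors and controls overlapped for both genes. *CYTH4* (log2FC 1.57, adjusted p = 0.189), an exchange factor of small GTPases in leukocytes, and *CSF2RB* (log2FC 1.48, adjusted p = 0.224) were likewise not called.

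The first comparison asked which genes differ between the 15 HS tumors and the pair of controls. Of 21199 genes tested with edgeR's quasi-likelihood test, 339 were upregulated in the tumors (1.6% of the genes tested) and 1305 were downregulated (6.16%) with the cutoffs set at 1.5 for the absolute log2FC and at 0.05 for the adjusted p. An unadjusted p under 0.05 was found for 4930 genes, and the median log2FC of all genes was 0.07. Among the 1036 genes with a name, 14 were upregulated (1.35%) and 65 downregulated (6.27%). All 15 tumors lay above both controls in 946 genes (4.46%) and below both in 1432 (6.76%). Without HS51, 448 genes were upregulated and 1640 downregulated, and these included all 339 and 1280 of the 1305 first called. The counts rested more on the controls. Without the spleen control, 147 genes were upregulated and 1191 downregulated, and without the lung control 13 and 167. In each of these fits a single control library was left, and it was assumed to vary like the tumors.

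Among the genes called lower in the tumors, the controls often differed from each other. The same shares were not counted over all genes tested, so the counts below compare only the called genes. Of the 1305 downregulated genes, 770 were below both controls in every tumor, 444 were below the lung control only and 91 were below the spleen control only. The lung control exceeded the spleen control by more than 1.5 log2 CPM in 673 of them, the spleen control exceeded the lung control by as much in 124, and in 508 the controls lay within 1.5 of each other. The upregulated genes were different in this respect. The controls lay within 1.5 of each other in 296 of the 339, and every tumor was above both controls in 295. All 14 upregulated genes with a name had controls within 1.5 of each other, as against 23 of the 65 downregulated ones.

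**Figure D1:**
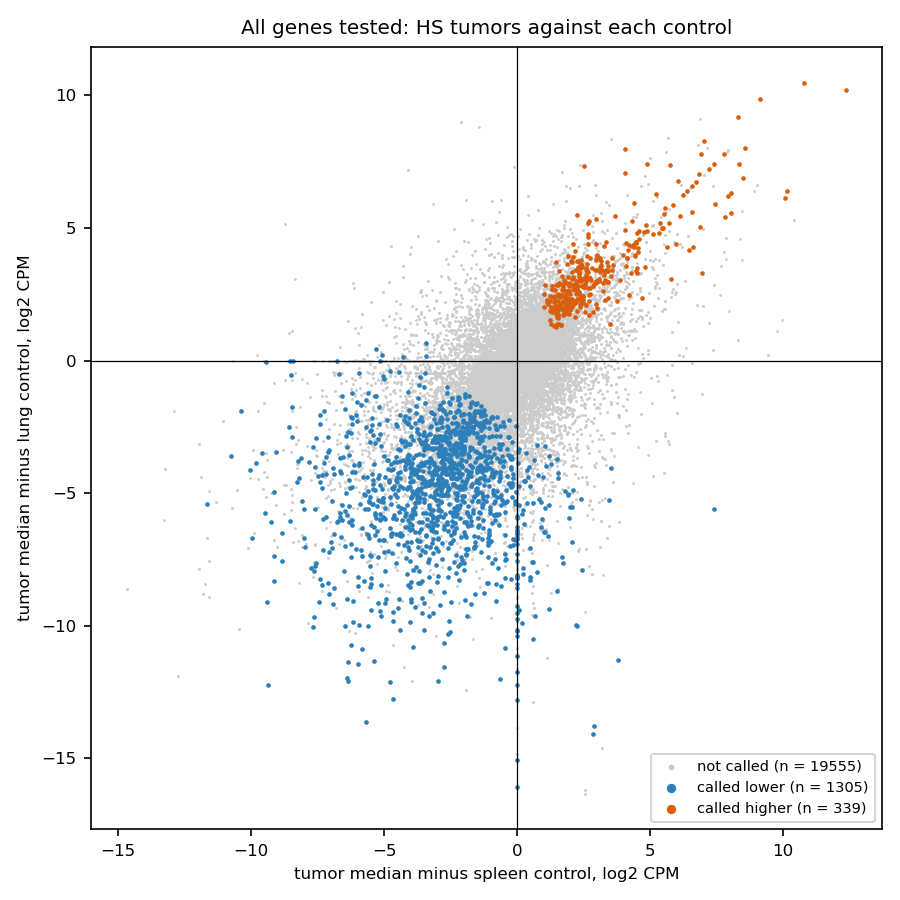
Each point is 1 of the 21199 genes tested, placed by the median of the 15 HS tumors minus the spleen control (horizontal axis, log2 CPM) and minus the lung control (vertical axis, log2 CPM), with the 339 genes called higher in orange, the 1305 called lower in blue and the rest in grey. The orange points lie in the upper right, and the blue points spread further down than to the left, with 673 of them at least 1.5 higher in the lung than in the spleen control.

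Among named genes that averaged 3 log2 CPM or more and did not overlap between the groups, the largest rise was in a lysosomal gene. Of 13 lysosomal genes tested, 3 were upregulated and 1 was downregulated, beside 1.6% and 6.16% of all genes. Their median log2FC was 0.80 beside 0.07 over all genes. *SMPDL3A* (ENSCAFG00000001002) encodes a phosphodiesterase that is secreted and found in lysosomes and that cleaves nucleotides, cyclic dinucleotides included. It was at 4.76 log2 CPM in the spleen control and 5.12 in the lung control, while the tumors ran from 6.85 (HS51) over a median of 9.89 to 12.53 (HS48). By the rule of no overlap all 15 tumors were above both controls, and the spleen tumors were least so. The log2FC was 5.66 ± 1.49 (SE, 15 tumors and 2 controls, adjusted p = 0.0243). *FUCA2*, an alpha-L-fucosidase, was at 4.50 in the spleen and 4.56 in the lung control and at 5.23 to 7.26 in the tumors, with a median of 6.31 (log2FC 1.78 ± 0.49, adjusted p = 0.0296). Here too every tumor was above both controls by the same rule, and the spread among tumors was narrower.

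Other lysosomal genes moved in both directions. *LAPTM4B*, a membrane protein of late endosomes and lysosomes, was the downregulated member, with a log2FC of -4.13 ± 1.01 (adjusted p = 0.0158). Its level was 4.30 in the lung control and -0.57 in the spleen control, and -6.19 to 1.14 in the tumors with a median of -1.07. The tumors were all below the lung control, but 3 of them were at or above the spleen control. The tetraspanin *CD63* had a log2FC of 1.95 (adjusted p = 0.169), the arylsulfatase *ARSA* 0.80 (adjusted p = 0.529) and the sialidase *NEU1* -0.02 (adjusted p = 0.986). The summed level of the 13 genes was 1009 CPM in the spleen and 1041 CPM in the lung control. In the lowest, median and highest tumor it was 1639 CPM (HS51), 3524 CPM and 8080 CPM (HS48). Most of the sum in HS48 was *SMPDL3A* alone, at 12.53 log2 CPM, so the sum is not separate from that gene.

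Genes of mitosis formed the other group with several increases. Of 19 mitotic genes tested, 3 were upregulated and 0 downregulated, beside 1.6% and 6.16% of all genes. Their median log2FC was 0.55, beside 0.07 over all genes. *GTSE1* (ENSCAFG00000000782), a microtubule-associated protein made in S and G2 phase, was at 2.49 log2 CPM in the spleen and 2.0 in the lung control, and at 4.28 (HS48), 4.69 and 6.19 (HS37) in the lowest, median and highest tumor. The log2FC was 2.82 ± 0.62 (adjusted p = 0.00796), and the lowest tumor was well clear of both controls. *KIFC1*, a minus-end directed kinesin of the spindle, was at 3.77 and 3.86 in the spleen and lung controls and at 5.32 to 7.44 in tumors with a median of 6.25 (log2FC 2.66 ± 0.53, adjusted p = 0.00434). *CDC25C*, the phosphatase that activates CDK1 at the entry into mitosis, was low throughout, at 1.24 and -0.09 in the controls and 1.98 to 4.0 in tumors (log2FC 2.31 ± 0.66, adjusted p = 0.0381). For both genes all 15 tumors were above both controls. *FBXO5*, an inhibitor of the anaphase-promoting complex, was also higher than both controls in every tumor, but it was not called (log2FC 1.67 ± 0.52, adjusted p = 0.056). The kinesin *KIF20A* (log2FC 2.33, adjusted p = 0.081) and the centromere protein gene *CENPM* (log2FC 1.71, adjusted p = 0.0726) did not pass either. At the other end of the list stood the phosphatase *CDC14B* (log2FC -1.74, adjusted p = 0.176) and the kinase *LATS1* (log2FC -0.87, adjusted p = 0.212).

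DNA replication and repair genes had no common direction of log2FC, but their summed level was higher in most tumors. The sum was 756 CPM in the spleen and 640 CPM in the lung control. In the lowest, median and highest tumor it was 675 CPM (HS4), 913 CPM and 1178 CPM (HS14). It was above both controls in 10 tumors and below both in 0. For 7 of the 22 genes the unadjusted p was under 0.05, beside 4930 of all 21199 genes tested. Of 22 tested, 1 was upregulated and 0 downregulated, and 11 had a positive and 11 a negative log2FC, with a median of 0.02. When libraries were scaled by their totals alone, this median was -0.19 and that of all genes -0.17, which was 0.24 below the value under TMM scaling. The upregulated gene was *RECQL4*, a DNA helicase, at -0.43 log2 CPM in the spleen and -0.20 in the lung control and at 0.83 (HS48), 2.27 and 3.19 (HS52) in the lowest, median and highest tumor (log2FC 2.59 ± 0.66, adjusted p = 0.0198). All tumors exceeded both controls. *CDK4*, the kinase that drives cells out of G1, had a log2FC of 1.12 (adjusted p = 0.198), and *CDK2* one of 0.13 (adjusted p = 0.918). *DSCC1*, a subunit of an alternative clamp loader, was at 1.52 to 4.80 in tumors and at 2.80 and 2.20 in the spleen and lung controls (log2FC 1.46 ± 0.63, adjusted p = 0.166). *ERCC6L2*, a repair factor, lay below both controls in all tumors, with a log2FC of -0.99 ± 0.33 that was not called (adjusted p = 0.0758), and *MRNIP*, known by its human homolog, had a log2FC of 1.55 ± 0.57 (adjusted p = 0.106).

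All 11 ribosome biogenesis genes had a positive log2FC, with a median of 1.03, and 1 was upregulated. Over all genes 1.6% were upregulated and the median log2FC was 0.07. Under scaling by totals alone the median of the list was 0.74. *WDR46*, a nucleolar protein needed to process the RNA of the small subunit, was at 5.23 log2 CPM in the spleen control, 4.22 in the lung control and 5.26 (HS47) to 7.33 (HS36) in tumors, with a median of 6.26 (log2FC 1.61 ± 0.48, adjusted p = 0.0442). The lowest tumor exceeded the spleen control by little. *BOP1* (1.99 ± 0.79, adjusted p = 0.133), *RPP21* (2.0 ± 0.88, adjusted p = 0.177) and *EXOSC4* (1.90 ± 0.84, adjusted p = 0.178), which act in maturation of ribosomal RNA, in ribonuclease P and in the RNA exosome, had larger log2FC and larger errors. Their levels in tumors reached 7.37, 7.21 and 6.60 log2 CPM, each overlapping the controls at the low end. The summed level of the list was 334 CPM in the spleen control, 270.3 CPM in the lung control and 389 to 919 CPM in tumors, so every tumor was above both controls.

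A further 3 upregulated genes met the level and overlap conditions without belonging to a list. *PPM1H*, a protein phosphatase of the PP2C family, was at 4.24 and 3.93 log2 CPM in the spleen and lung controls and at 4.99 (HS33), 6.54 and 7.88 (HS14) in the lowest, median and highest tumor (log2FC 2.57 ± 0.73, adjusted p = 0.0354). *MTFR2*, a regulator of mitochondrial fission, was at 3.29 and 2.29 in the same controls and at 4.02 (HS39), 5.40 and 6.43 (HS37) in tumors (log2FC 2.48 ± 0.55, adjusted p = 0.0086). *KIAA0930* was at 4.26 and 3.95 in controls and at 4.36 to 6.17 in tumors (log2FC 1.53 ± 0.43, adjusted p = 0.0358). The overlap condition required all 15 tumors to be above both controls for each of the 3 genes, and *KIAA0930* met it narrowly in HS27. Of the 14 named genes called higher, those outside the naming rule were *ENTHD1* and *CKB*, which were looked at after their values were seen. *CKB* had 0 reads in both controls and at most 64 reads in a tumor, and *ENTHD1* had 10 and 22 reads in the spleen and lung controls and a median of 996 in tumors.

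**Figure D2:**
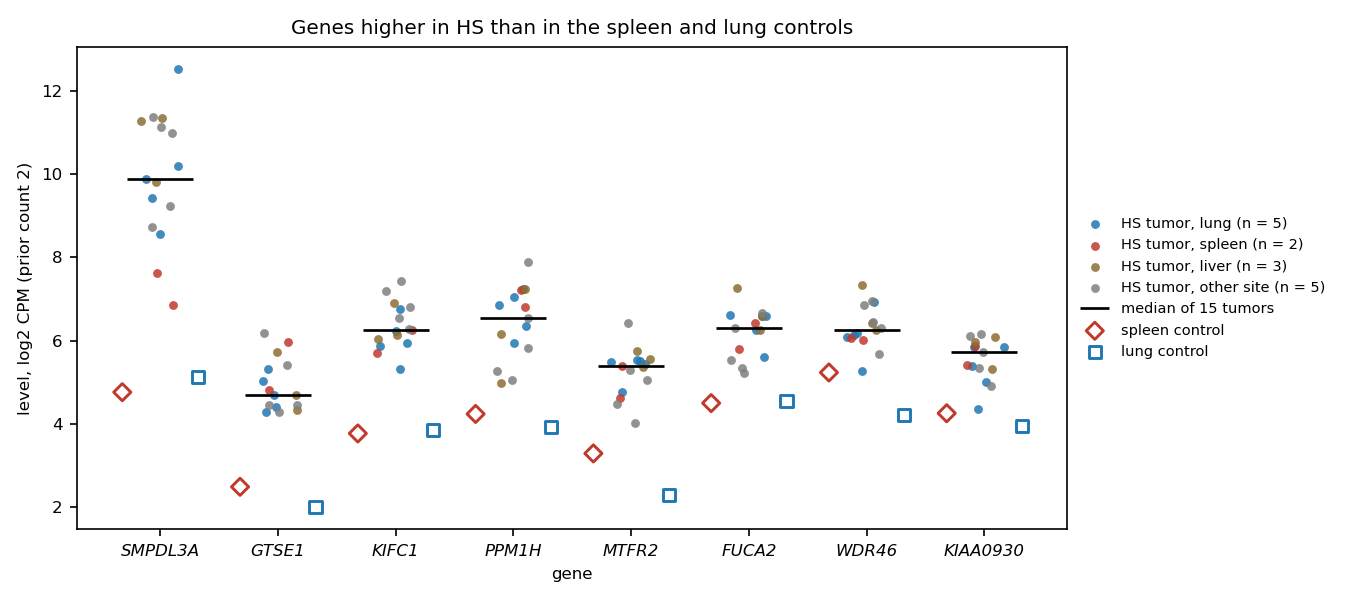
Levels in log2 CPM (vertical axis) of 8 genes with a name that were called higher, averaged 3 log2 CPM or more and did not overlap the controls, with 1 filled point for each of the 15 tumors coloured by site, a line at their median, an open diamond for the spleen control and an open square for the lung control. *SMPDL3A* spans the widest range among tumors, from 6.85 to 12.53, and its lowest points are both spleen tumors.

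Larger changes under the same conditions were in identifiers without a name in the sources used here. ENSCAFG00000006465 had 13 reads in the spleen control and 16 in the lung control, and 2901 (HS4), 23589 and 58812 (HS37) reads in the lowest, median and highest tumor (adjusted p = 5.18e-05). ENSCAFG00000018348 had 2 and 18 reads in the spleen and lung controls and 1132 (HS51), 17403 and 40570 (HS37) in tumors (adjusted p = 0.000748). Both were nearly silent in either organ and read in every tumor, and in the 3 blood controls they lay at -4.06 log2 CPM or below. In the other direction, ENSCAFG00000018560 was at 10.71 and 9.32 log2 CPM in the spleen and lung controls and at 3.87 to 5.45 in tumors (log2FC -5.27 ± 0.30, adjusted p = 7.5e-09), the smallest adjusted p of all genes tested. ENSCAFG00000008756 was at 9.57 and 8.77 in the controls and at -0.19 (HS50) to 5.56 (HS35) in tumors (log2FC -5.21 ± 0.74, adjusted p = 0.000341). These 4 differences kept an adjusted p under 0.05 without either control.

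Endothelial genes were lower in the tumors. Of 5 tested, 4 were downregulated and 0 upregulated, beside 6.16% and 1.6% of all genes, and the median log2FC was -3.07. Without the lung control the median was -1.36 and 0 were called. In bulk tissue, fewer cells of a type and less RNA per cell cannot be told apart. *PTPRB* (ENSCAFG00000000446), the receptor phosphatase of endothelial junctions, was at 5.74 log2 CPM in the spleen and 8.08 in the lung control, and at -0.54 (HS36), 2.33 and 3.72 (HS51) in the lowest, median and highest tumor (log2FC -4.99 ± 0.64, adjusted p = 0.000145). *MYCT1*, a gene expressed in endothelium, was at 5.56 and 7.76 in those controls and at 0.29 to 3.71 in tumors (log2FC -4.47 ± 0.57, adjusted p = 0.000137). *PODXL*, a sialomucin of endothelium and podocytes, was at 5.23 and 8.09 in controls and 2.34 to 5.18 in tumors (log2FC -3.07 ± 0.49, adjusted p = 0.000865). All 15 tumors were below both controls for these 3 genes, and HS51 was the highest tumor in each. Without the lung control the log2FC of *PODXL* was -0.98 (adjusted p = 0.663). *NOTCH4*, a Notch receptor of vessels, was at 6.68 in the lung control but only 1.85 in the spleen control, with tumors at -0.75 to 4.60. Its log2FC of -3.07 ± 0.84 (adjusted p = 0.0301) turned to 0.85 (adjusted p = 0.84) without the lung control, since only 6 tumors were below the spleen control. The fifth gene, *FLT4*, a receptor of lymphatic growth factors, had a log2FC of -1.81 (adjusted p = 0.229). The 5 genes summed to 195 CPM in the spleen control, 948 CPM in the lung control and 9.82 (HS33) to 136 CPM (HS39) in tumors.

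Epithelial genes followed the lung control. All 12 epithelial and ciliated cell markers had a negative log2FC, with a median of -3.44, and 4 were downregulated, beside 6.16% of all genes. Without the lung control the median was 1.58 and 0 were called in either direction. *AGER*, a marker of alveolar type I cells, was at 10.67 log2 CPM in the lung control and 1.92 in the spleen control, and at 0.74 (HS14), 2.68 and 5.65 (HS47) in the lowest, median and highest tumor. Its log2FC was -6.06 ± 0.93 (adjusted p = 0.00064), and 1.75 (adjusted p = 0.697) without the lung control. *GRHL2*, a transcription factor of epithelia, was at 4.87 in lung and -2.91 in spleen, with tumors at -6.19 to 1.46 (log2FC -4.44 ± 1.31, adjusted p = 0.0436), and at 2.55 (adjusted p = 0.74) without the lung control. Both genes overlapped the spleen control. The collagen receptor *DDR1* and the receptor tyrosine kinase *ERBB3* were below both controls in every tumor. *DDR1* was at 5.15 and 6.24 in the spleen and lung controls and 1.58 (HS50) to 4.52 (HS4) in tumors (log2FC -2.82 ± 0.55, adjusted p = 0.00364), and *ERBB3* was at 3.57 and 6.38 in controls and -0.44 to 3.43 in tumors (log2FC -3.44 ± 0.72, adjusted p = 0.00583). Neither was called without the lung control, with a log2FC of -2.13 (adjusted p = 0.294) for *DDR1* and -1.38 (adjusted p = 0.679) for *ERBB3*. The list summed to 1891 CPM in the lung control, 54.4 CPM in the spleen control and 9.69 to 65.0 CPM in tumors, where HS35, HS47 and HS52, all from lung, were the 3 highest.

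Matrix and lymphocyte genes were lower in part. Of 13 fibroblast and matrix genes, 2 were downregulated and 0 upregulated, beside 6.16% and 1.6% of all genes, with a median log2FC of -1.04. A positive log2FC was found for 4 and a negative one for 9. The median was -0.97 without the spleen control and -0.74 without the lung control, and 0 were called within organs. Summed, the list was at 624 CPM in the spleen control, 507 CPM in the lung control and 49.6 (HS50) to 974 CPM (HS4) in tumors. The sum was above both controls in 5 tumors and below both in 10. *SMOC2*, a matricellular protein, was at 8.39 log2 CPM in the spleen control, 5.47 in the lung control and 0.05 (HS39) to 6.21 (HS14) in tumors (log2FC -3.06 ± 0.85, adjusted p = 0.0317). *FBN2*, a fibrillin of elastic fibers, had 374 and 379 reads in the spleen and lung controls and 0 to 92 reads in tumors, with a median of 4 (log2FC -4.02 ± 1.22, adjusted p = 0.0491). Tumors were below both controls for *FBN2*, while 2 tumors reached the lung control for *SMOC2*. *THBS2*, a thrombospondin of the matrix, ran the other way, at 4.04 and 3.04 in controls and 2.48 (HS51) to 8.34 (HS4) in tumors, but was not called (log2FC 3.08 ± 1.35, adjusted p = 0.176). *TCF21*, a transcription factor of mesenchyme, had a log2FC of -3.82 ± 1.70 (adjusted p = 0.182), and of -5.69 ± 1.35 (adjusted p = 0.0108) without HS51, whose level of 5.18 was the highest of the tumors and above the spleen control.

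Of 9 lymphocyte genes tested, 1 was downregulated and 0 upregulated, beside 6.16% and 1.6% of all genes, and the median log2FC was -0.54. The direction of this median rested on the spleen control, since it was 1.13 without it, with 0 called, and -1.05 without the lung control. *TCF7*, a transcription factor of T cells, was at 5.02 log2 CPM in the spleen control, 3.18 in the lung control and -4.68 (HS29), -1.32 and 2.84 (HS50) in the lowest, median and highest tumor, so that every tumor was below both controls (log2FC -3.96 ± 1.10, adjusted p = 0.0321). *THEMIS*, which acts in T cell selection, was at 4.38 in spleen but -0.15 in lung, and its log2FC of -2.82 ± 1.05 (adjusted p = 0.108) turned to 0.79 (adjusted p = 0.876) without the spleen control. *IFNG*, the gene of interferon gamma, was at -5.42 to 3.83 in tumors and at -0.97 and -1.83 in controls (log2FC 2.65 ± 1.87, adjusted p = 0.408), and *TAGAP*, a GTPase-activating protein of activated T cells, had a log2FC of 0.71 ± 0.60 (adjusted p = 0.5). HS50, a liver tumor, had the highest level of *TCF7*, *THEMIS* and *IFNG* and the highest sum of the list, 340 CPM beside a tumor median of 96.3 CPM and 269.8 CPM in the spleen control.

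The 10 lowest log2FC under the level and overlap conditions included genes of junctions, signalling and trafficking. *MPDZ*, a scaffold with many PDZ domains at tight junctions, was at 5.93 log2 CPM in the spleen and 6.92 in the lung control and at 1.07 (HS29), 3.12 and 4.56 (HS35) in tumors (log2FC -3.16 ± 0.51, adjusted p = 0.000931). *UTRN*, utrophin, which links the actin cytoskeleton to the membrane, was at 7.55 and 8.35 in the controls and 3.95 to 6.94 in tumors (log2FC -2.37 ± 0.46, adjusted p = 0.00327). The overlap condition required all 15 tumors to be below both controls for these and for the 8 further genes of this set. *SASH1*, a signalling scaffold, was at 7.74 and 7.46 in the controls, nearly alike, and at 3.23 (HS37) to 6.26 (HS50) in tumors (log2FC -2.31 ± 0.49, adjusted p = 0.00683). *ITPR3*, a calcium channel of the endoplasmic reticulum opened by inositol trisphosphate, was at 6.22 and 5.45 in the controls and spread from 1.13 (HS36) to 5.10 (HS4) in tumors (log2FC -2.49 ± 0.69, adjusted p = 0.0312). The ubiquitin ligase *NEDD4L*, which acts on ion channels, was at 6.79 and 7.11 in the controls and 1.92 to 6.06 in tumors (log2FC -2.06 ± 0.56, adjusted p = 0.028). For each of these 3 genes the controls were within 1 log2 CPM of each other.

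The rest of the set were regulators of small GTPases and a zinc finger gene. *PLEKHG1*, an exchange factor of such GTPases, was at 6.16 and 5.48 log2 CPM in the spleen and lung controls and 1.12 (HS48) to 5.0 (HS51) in tumors (log2FC -2.50 ± 0.57, adjusted p = 0.01). *RAB3IP*, which activates RAB8 in membrane traffic, was at 4.60 and 5.76 in the controls and 2.38 to 4.44 in tumors (log2FC -1.78 ± 0.40, adjusted p = 0.00876). *ZNF532* was at 5.15 and 6.50 in the controls and 2.0 (HS33) to 4.65 (HS35) in tumors (log2FC -2.41 ± 0.53, adjusted p = 0.00796). The remaining members, *PODXL* and *DDR1*, were given with the endothelial and epithelial lists. The endothelial sum was below both controls in every tumor and the epithelial sum in 12 of 15, and the part of these cell types in the decreases was not tested.

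**Figure D3:**
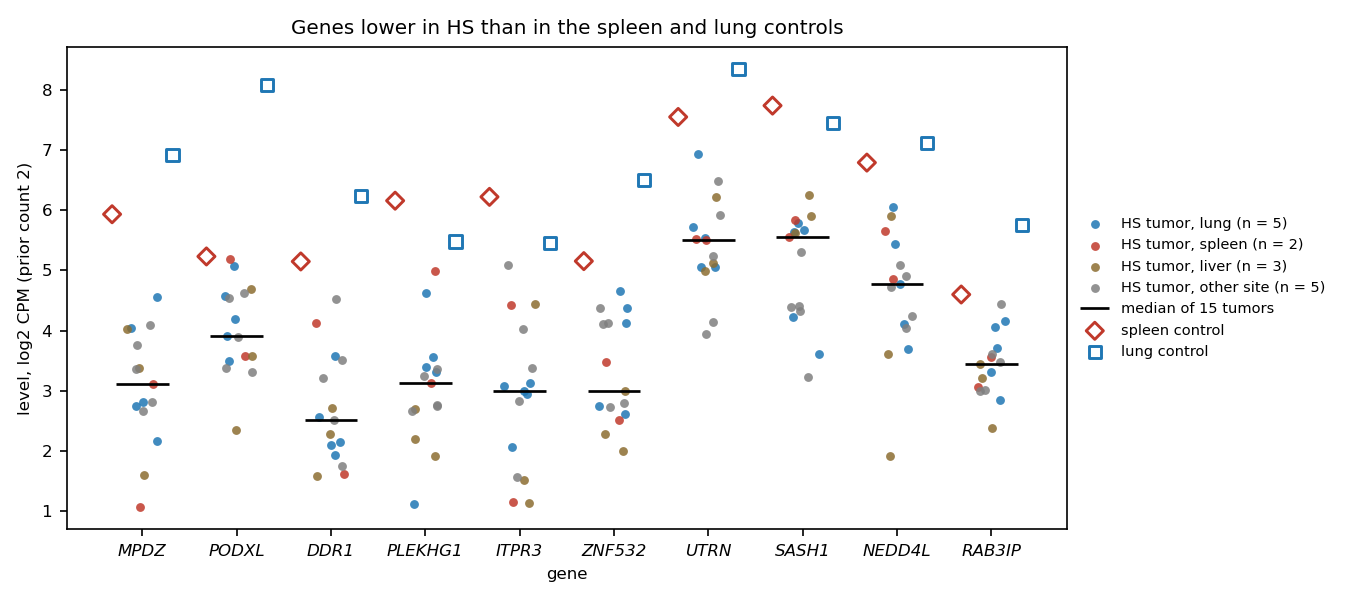
Levels in log2 CPM (vertical axis) of the 10 genes with a name and the lowest log2FC among those called, averaging 3 log2 CPM or more and not overlapping the controls, drawn as for the genes called higher. Both open symbols lie above all 15 filled points in each gene because the genes were selected so. The gap between the controls is widest for *PODXL*, at 5.23 in spleen and 8.09 in lung.

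Antigen presentation genes moved in both directions. Of 15 tested, 1 was upregulated and 1 downregulated, beside 1.6% and 6.16% of all genes, with a median log2FC of 0.70. The median was 2.0 without the spleen control, and -0.10 when only the lung and spleen tumors were set against the controls. *DLA-64*, an MHC class I gene, was at 8.52 log2 CPM in the spleen control, 8.0 in the lung control and 8.24 (HS47), 10.66 and 12.42 (HS27) in the lowest, median and highest tumor (log2FC 2.64 ± 0.76, adjusted p = 0.0394). HS47 lay between the controls and the other 14 tumors were above both. Near-identical class I copies can share reads, so this value is uncertain, as are those of *DLA88* (-0.40, adjusted p = 0.836) and *HLA-C* (-1.12, adjusted p = 0.717). *DLA-DOA*, which modulates the loading of class II molecules in B cells, was at 6.21 in the spleen, 2.77 in the lung control and -1.21 to 4.09 in tumors (log2FC -3.37 ± 0.86, adjusted p = 0.0204). Its partner *DLA-DOB* had a log2FC of -2.41 ± 0.95 (adjusted p = 0.129), which turned to 0.93 (adjusted p = 0.827) without the spleen control. The class II chain *DLA-DRA* (0.70, adjusted p = 0.698), the peptide transporter *TAP1* (1.25, adjusted p = 0.168) and tapasin, *TAPBP* (1.41 ± 0.45, adjusted p = 0.0622), which loads class I molecules, were not called. The list summed to 3915 CPM (HS47) to 56914 CPM (HS39) in tumors, and both controls lay inside this range.

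In 3 further signalling and metabolic lists no gene was called. The counts of unadjusted p under 0.05 in these and later lists stand beside 4930 of all 21199 genes tested. For interferon and NF-kB signalling, 0 of 17 genes were called, 2 had an unadjusted p under 0.05, and the median log2FC was 0.65. *GSDMD*, the pore-forming protein of pyroptosis, lay above both controls in all tumors, at 5.87 to 7.39 log2 CPM beside 5.77 in the spleen and 5.32 in the lung control. Its log2FC of 1.28 ± 0.36 had an adjusted p of 0.0351 but was under the fold cutoff. *ETV7*, an interferon-induced ETS factor, was also above both controls in all tumors (log2FC 2.14 ± 0.68, adjusted p = 0.0576), while *TNFAIP3*, an inhibitor of NF-kB (1.22 ± 0.66, adjusted p = 0.28), and *SHARPIN* (1.81 ± 1.01, adjusted p = 0.291), a part of the linear ubiquitin ligase, overlapped them.

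Among 8 immediate early and MAPK output genes, 0 were called, 2 had an unadjusted p under 0.05, and the median log2FC was 0.77. *NAB2*, a corepressor of EGR factors, was above both controls in every tumor (1.60 ± 0.60, adjusted p = 0.112). *EGR1*, the transcription factor induced by growth signals, had a log2FC of -1.12 (adjusted p = 0.433), *TRIB1*, a pseudokinase, one of 1.67 ± 0.74 (adjusted p = 0.182), *PIM1*, a survival kinase, one of 0.83 ± 0.47 (adjusted p = 0.297), and *MYC* one of 1.08 ± 0.58 (adjusted p = 0.273). In 10 of the 15 tumors *MYC* was above both controls, at up to 6.97 log2 CPM in HS51. Of 3 sterol synthesis genes 0 were called and 1 had an unadjusted p under 0.05. *ACAT2*, an acetyl-CoA acetyltransferase, exceeded both controls in all tumors (1.45 ± 0.46, adjusted p = 0.0599), whereas *SREBF2*, the regulator of sterol synthesis (0.31 ± 0.53, adjusted p = 0.758), and *SQLE*, squalene epoxidase (0.46 ± 0.83, adjusted p = 0.778), spanned them.

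**Figure D4:**
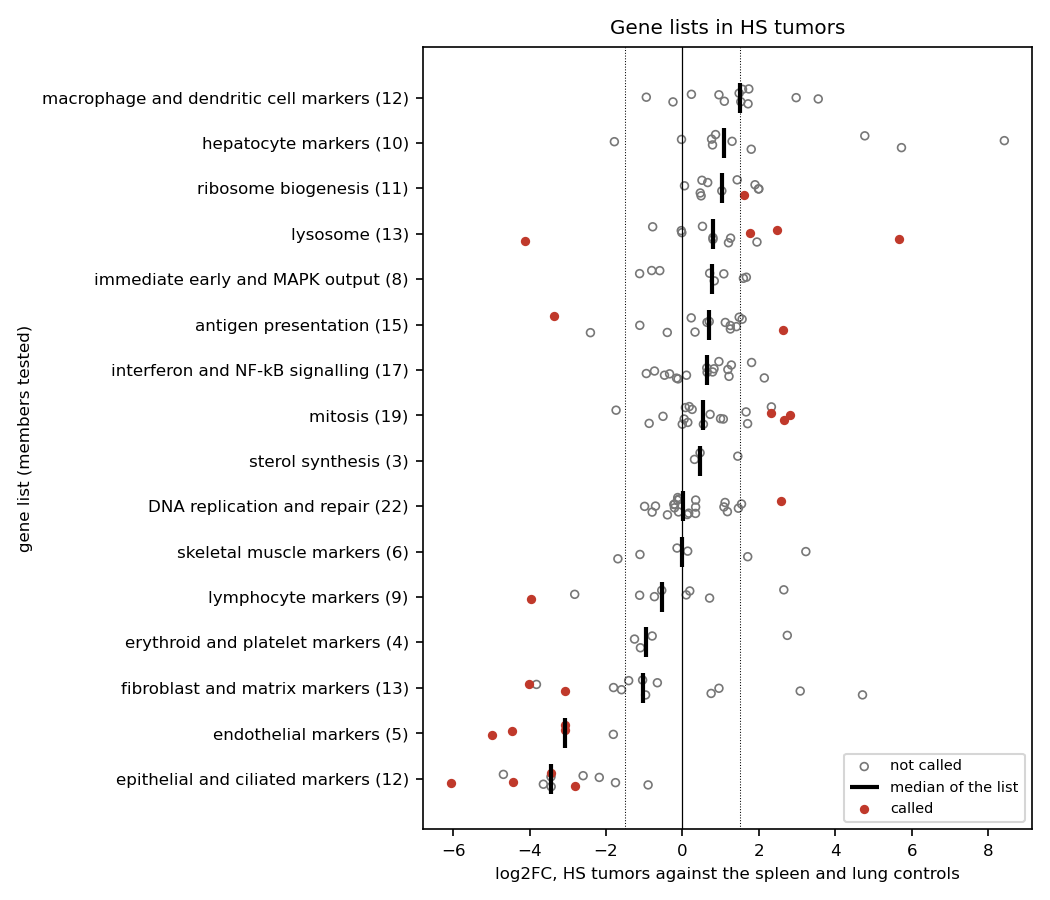
log2FC of HS tumors against the spleen and lung controls (horizontal axis) for every tested member of 16 gene lists (vertical axis, with the number of members tested), filled red where called and open where not, with a bar at the median of each list and dotted lines at the fold cutoff of 1.5 in either direction. The endothelial and epithelial lists have their medians at -3.07 and -3.44, left of the cutoff, and the macrophage and dendritic cell list has its median at 1.51 without a call. Without the lung control the endothelial, epithelial and macrophage medians were -1.36, 1.58 and 0.83.

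Markers of blood, liver and muscle cells varied with single tumors. None of the 4 erythroid and platelet genes, 10 hepatocyte genes and 6 skeletal muscle genes tested was called by edgeR, and 0, 1 and 1 of them had an unadjusted p under 0.05. HS51 had 182 CPM summed over the erythroid and platelet genes, above 97.4 CPM in the spleen and 25.6 CPM in the lung control, while the other tumors were at or below 30.5 CPM. Without HS51, *TRIM58* (-8.08 ± 1.28, adjusted p = 0.00053), a ubiquitin ligase of maturing red cells, and *FECH* (-1.90 ± 0.57, adjusted p = 0.0408), ferrochelatase of heme synthesis, were downregulated, against log2FC of -1.10 ± 2.87 and -1.25 ± 0.89 with it. *TRIM58* had 845 reads in the spleen control, 20 in the lung control, 2822 in HS51 and 0 in 9 tumors, so the size of its fold change is uncertain. *TSPO2*, an erythroid cholesterol-binding protein, had 65 reads in the spleen control, 0 in the lung control and in 11 tumors, and 3067 in HS51, and the platelet receptor *MPIG6B* had a log2FC of -0.79 ± 0.88 (adjusted p = 0.62).

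*FBP1*, a gluconeogenic enzyme of liver that monocytes and macrophages also make, was at 2.08 and 3.34 log2 CPM in the spleen and lung controls and at 1.16 (HS51), 8.11 and 10.65 (HS27) in the lowest, median and highest tumor. It exceeded both controls in 12 of 15 tumors, and its log2FC of 5.73 ± 2.40 was not called (adjusted p = 0.155). Plasminogen, *PLG*, made by hepatocytes, had 4 and 1 reads in the spleen and lung controls, a median of 1 read in tumors and 10849 reads in HS33, a liver tumor. *TMPRSS6* (1.80 ± 0.91, adjusted p = 0.241), a serine protease of hepatocytes, and *APOM* (0.79 ± 0.62, adjusted p = 0.468), an apolipoprotein, were not called. In the muscle list, *ITGA7*, the laminin receptor of muscle, was at 2.68 and 4.52 in the controls and 1.66 (HS33) to 9.16 (HS4) in tumors (3.23 ± 1.60, adjusted p = 0.233). *STAC3*, a part of excitation-contraction coupling, had a log2FC of 1.71 ± 0.76 (adjusted p = 0.181), and *TRDN* and *ABRA*, defining genes of muscle, were at or below -1.39 log2 CPM in all tumors.

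**Figure D5:**
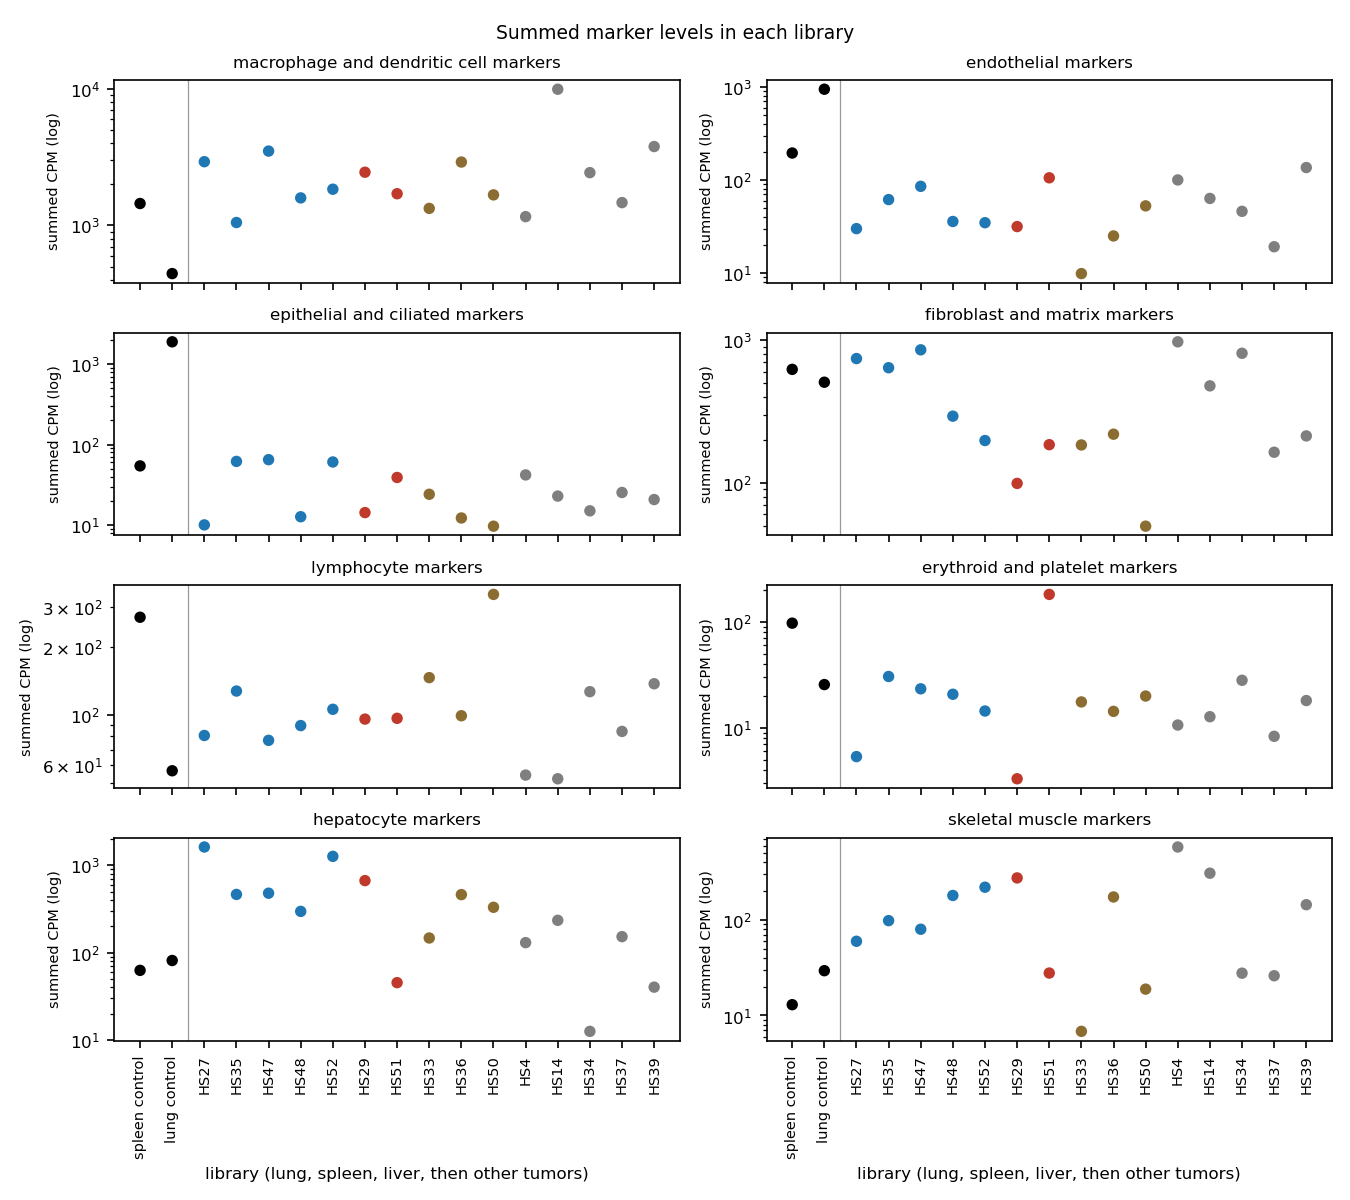
Summed CPM (vertical axes, log scale) of 8 marker lists in the spleen control, the lung control (black) and each of the 15 tumors (blue lung, red spleen, brown liver, grey other sites). HS51 stands out at 182 CPM of erythroid and platelet markers, and endothelial markers are below both controls in every tumor.

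The second comparison set each tumor against the control of its own organ, with 5 lung and 2 spleen tumors, the lung and spleen controls and the organ as a covariate. Of 20459 genes tested, 49 were upregulated (0.24%) and 320 downregulated (1.56%), and 3835 had an unadjusted p under 0.05. All 339 genes upregulated in the first comparison had the same direction here, and 42 were called again. Of the 1305 downregulated genes, 1294 were tested here, all with the same direction, and 289 were called again. The comparisons share these 9 libraries and are not independent. Among 1020 genes with a name, 2 were upregulated (0.196%) and 13 downregulated (1.27%). Without HS51, 216 genes were upregulated and 837 downregulated. Without the spleen control the counts were 12 and 231, and without the lung control 0 and 0.

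The upregulated genes with a name were *GTSE1* and *PPM1H*. *GTSE1* was at 2.0 log2 CPM in the lung control and 4.28 to 5.32 in the lung tumors, and at 2.49 in the spleen control, 5.98 in HS29 and 4.82 in HS51 (log2FC within organs 2.90 ± 0.56, adjusted p = 0.037). *PPM1H* was at 3.93 in the lung control and 5.94 to 7.24 in the lung tumors, and at 4.24 in the spleen control, 7.22 in HS29 and 6.82 in HS51 (2.82 ± 0.51, adjusted p = 0.0316). In both organs every tumor was above its control. *SMPDL3A* was at 5.12 in the lung control and 8.57 to 12.53 in lung tumors, but at 6.85 and 7.63 in the spleen tumors beside 4.76 in the spleen control. Its log2FC within organs was 3.88 ± 1.43 (adjusted p = 0.184) and was not called. *KIFC1* (2.24 ± 0.50, adjusted p = 0.0554), *MTFR2* (2.43 ± 0.54, adjusted p = 0.0538) and *FUCA2* (1.74 ± 0.45, adjusted p = 0.0755) were not called either.

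Among the downregulated genes within organs were *PTPRB* (-4.82 ± 0.82, adjusted p = 0.0293), *MYCT1* (-4.38 ± 0.73, adjusted p = 0.0287), *MPDZ* (-3.43 ± 0.64, adjusted p = 0.032), *UTRN* (-2.30 ± 0.48, adjusted p = 0.0448) and *TCF7* (-4.83 ± 1.04, adjusted p = 0.0498). *PTPRB* was at 8.08 log2 CPM in the lung control and 0.60 to 3.36 in lung tumors, and at 5.74 in the spleen control, 0.83 in HS29 and 3.72 in HS51, so both organs showed the decrease. *ANGPT1*, the ligand that keeps vessels quiescent, was named here after its values were seen, at 7.05 in the lung control and -1.17 to 3.43 in lung tumors, and at 5.54 in the spleen control, -0.28 in HS29 and 2.57 in HS51 (-4.55 ± 0.87, adjusted p = 0.0361). A term for a difference of the effect between the organs was added after results had been seen. Its adjusted p was under 0.05 for 0 of 20459 genes, with a smallest value of 0.999985, and its unadjusted p was under 0.05 for 681. With a single control per organ and 2 spleen tumors the term could hardly give a call. The 0 therefore does not show that the effect was alike in both organs.

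The single libraries bore differently on the genes named. Of 32 called genes with a name that are described here, all 32 were called again without HS51 and 21 with only the 8 tumors of sites other than lung and spleen. Without the spleen control 14 were called, namely *MTFR2*, *MPDZ*, *PODXL*, *DDR1*, *ZNF532*, *UTRN*, *RAB3IP*, *LAPTM4B*, *MYCT1*, *PTPRB*, *NOTCH4*, *AGER*, *ERBB3* and *GRHL2*. Without the lung control *DLA-DOA* was the single gene called, with an adjusted p of 0.048. *SMPDL3A* had an adjusted p of 0.0101 without HS51, 0.165 without the spleen control and 0.305 without the lung control. *GTSE1* had 0.00725, 0.0508 and 0.23 in that order, and *PTPRB* 7.52e-05, 7.83e-05 and 0.0773. HS51 was the tumor nearest to the controls in 337 of the 1305 downregulated genes and in 60 of the 339 upregulated ones. HS39, the shoulder tumor, was nearest in 61 of the upregulated genes, and HS4, the thoracic mass, in 222 of the downregulated ones.

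On the same scale, the 3 HHS tumors and the 3 blood controls of BMDs, which did not enter the tests, had these levels. *SMPDL3A* was at 8.65 to 12.10 log2 CPM in HHS and 3.85 to 4.51 in blood. *GTSE1* was at 2.96 to 5.57 in HHS and 0.48 to 2.16 in blood. The HHS tumors lay above the spleen and lung controls for both genes, and blood, from dogs of the tumors' breed, lay below or near those controls. Other upregulated genes differed in this. In blood, *DLA-64* (10.88 to 11.25), *PPM1H* (4.79 to 5.81) and *KIAA0930* (5.09 at the lowest) lay above both of those controls. For *DLA-64* and *KIAA0930* blood was inside the range of the HS tumors. Blood lay below all HS tumors for *KIFC1*, *MTFR2*, *FUCA2*, *WDR46*, *CDC25C* and *RECQL4*. The part of breed in these levels was not tested. *ITPR3* and *UTRN*, both lower in HS than in spleen and lung, were at 5.95 to 6.80 and 8.11 to 8.42 in blood, near their levels in those organs, whereas *MPDZ* was at -3.04 to -0.86 and *ZNF532* at -5.10 to -4.45, below all HS tumors. The blood libraries came from another flow cell.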

How the data were processed

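RNA of 15 HS tumors and of the spleen and lung controls was compared. Reads had been trimmed by the authors (cutadapt 3.7), mapped on CanFam3.1 (STAR 2.7.10a) and assigned to genes (HTSeq 2.0.0), and the deposited values are raw counts, neither normalized nor filtered. The annotation release and strand option are not given in the sources used here, so overlapping and antisense genes may share reads. Columns with the authors' own fold changes were not used.

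These counts were tested with edgeR 4.0.16 in R 4.3.3 (TMM factors, filterByExpr, quasi-likelihood test, Benjamini-Hochberg adjustment). Calls needed an adjusted p under 0.05 and a log2FC beyond 1.5 in either direction. SEs were the log2FC divided by the root of F. The alternatives were DESeq2 1.42.0, other size factors, filters, adjustments and cutoffs, and other sets of tumors and controls. The script was tested on simulated counts with 200 changed genes. Figures were drawn with Python 3.11.15 and matplotlib 3.10.9. A count of 3, the smallest level treated as detectable, equalled 0.0175 to 0.0301 CPM, which covers counting error only. No libraries were duplicates.

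Names came from the identity columns of the study's supplementary tables (1025 dog symbols, 101 human homologs only). RefSeq matched 0 identifiers, and no coordinates or sequences are given. Lists for FOXM1, AURKB and PLK1 signalling, E2F, checkpoints, mitochondrial genes and broader markers had a name for 0 members and were not analysed here.

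Of the list members, 2 count in the totals of their list but are not reported here by name. The members, lists and tests were chosen with earlier results of these data known. Genes were named if they had a symbol, were called, averaged 3 log2 CPM or more and did not overlap (the 10 highest and 10 lowest log2FC), or were among the 4 smallest p of a list, with 2 unnamed identifiers per direction. *KIF20A*, *CENPM*, *CDC14B* and the other list members given with a log2FC alone, as well as *LYZ*, *CKB*, *ENTHD1* and *ANGPT1*, were described after their values were seen.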

Additional observations from a re-analysis of the deposited data

Results flagged for a closer look

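Among the 5 lung tumors, 78 genes were checked for a single tumor that lay far from the other 4, taken as a gap of more than 0.71 of the range. For normally distributed values, chance gives about 1 such gene in 20, and 8 were found. This rate does not hold for *TSPO2*, *TRIM58* and *TRDN*, where the other lung tumors lay at or near the level of no reads. The count of 8 was therefore not compared with chance. HS27 was low in *MTFR2* (4.77 log2 CPM beside 5.43 to 5.55), *ITPR3* (2.06 beside 2.94 to 3.12) and *DSCC1* (2.7 beside 4.22 to 4.40). HS48 was high in *DLA-DOB* (3.05 beside 1.81 to 1.98) and in *TRDN* (-4.25 beside -6.19 to -5.67). *TMPRSS6* was low in HS35 (-1.15 beside 0.05 to 0.41). *TSPO2* in HS52 (-4.04) and *TRIM58* in HS35 (-5.70) were the only lung tumors with a read of those genes.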

How the results depend on the processing

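For all sites, edgeR called 339 genes higher and 1305 lower (1644 in all). DESeq2 called 1366 higher and 3166 in all, an adjusted p under 0.0005 left 5 and 82 (87), Benjamini-Yekutieli adjustment 33 and 410 (443), a test against a log2FC of 1.5 42 and 378 (420), the lung and spleen tumors without a tissue term 67 and 329 (396), and adding the liver control gave 1050 and 2217 (3267). Leaving out 1 library (a control, HS37 or HS51) gave 13 to 448 higher, 167 to 1640 lower and 180 to 2088 in all. Within organs, where 49 were higher and 320 lower (369), DESeq2 called 1086 and 1252 (2338), an adjusted p under 0.0005 0 and 0 (0), Benjamini-Yekutieli 1 and 1 (2) and the test against 1.5 6 and 10 (16). Without the filter 79 were higher, and with a mean of at least 1 CPM 77. Leaving out 1 library gave 0 to 216 higher, 0 to 837 lower and 0 to 1053 in all.

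Leaving out 1 library turned the sign of these log2FC, given by their lowest and highest values. Positive without the spleen control were *DLA-DOB* (-3.29 to 0.93), *THEMIS* (-3.71 to 0.79), *FECH* (-1.90 to 0.046) and *TRIM58* (-8.08 to 3.27), and within organs *THEMIS* (-4.09 to 0.41). Positive without the lung control were *NOTCH4* (-4.02 to 0.85), *AGER* (-7.05 to 1.75), *GRHL2* (-5.43 to 2.55) and *TRDN* (-2.51 to 0.44), and within organs *AGER* (-6.02 to 1.03), *GRHL2* (-5.89 to 1.04), *MPIG6B* (-1.35 to 0.51) and *TRIM58* (-5.74 to 0.83), while *PLG* within organs (-1.09 to 4.49) was then negative. Adding the liver control turned *ACAT2* (-0.38), *SREBF2* (-0.19), *SQLE* (-2.42), *TMPRSS6* (-4.93), *PLG* (-9.88) and *APOM* (-5.77). Among the 78 genes chosen by the naming rule, no other changed direction under the alternatives run, and the further genes named after their values were seen were not carried through them. The causes of these changes were not tested. No paired analysis was possible because the groups share no replicate numbers. With 1 library per control organ, the spread between normal dogs was not measured.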
